A study of Mus musculus with 12 samples.

Results

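The 9 genes described here code for proteins that hold, store or carry iron, zinc and copper in the cell: the metallothioneins Mt1 and Mt2, the ferritin subunits Fth1 and Ftl1, the transferrin receptor Tfrc, the iron exporter Slc40a1 (ferroportin), the iron importer Slc11a2 (DMT1), the zinc and iron importer Slc39a14 (ZIP14) and the ferroxidase Cp (ceruloplasmin). They were taken by symbol from the 23420 genes of the count table, and all 9 were found and passed the filter on low counts. RNA was sequenced from 12 kidneys of male C57BL/6J mice. The 4 control kidneys are normal kidneys removed at nephrectomy, and the other 8 were collected 24 h after ischemia of the renal pedicle, which the labels give as 20 min for every sample, the controls included. In the model described in the methods, the right kidney is excised and a clamp is placed around the left pedicle under ketamine and xylazine, and ischemia follows in mice that are either conscious, with brief isoflurane sedation, or anaesthetised. The comparison of ischemic with control kidneys therefore holds the ischemia, the loss of the other kidney, the surgery and the elapsed time together, and these cannot be told apart. The labels of the ischemic kidneys disagree on anaesthesia. Ischemia set A holds 4 kidneys whose titles say anaesthetised while the group field says conscious, and ischemia set B holds the 4 for which it is the other way round, so neither set is named by anaesthesia here. The age of the mice is not in the labels.

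Metallothioneins are small cysteine-rich proteins that bind zinc and copper, and their genes are switched on by the zinc-sensing transcription factor MTF1 and by glucocorticoids. Ferritin is a shell of heavy (Fth1) and light (Ftl1) chains that stores iron, with the heavy chain oxidising it. Iron regulatory proteins bind a hairpin, the iron-responsive element, in the untranslated regions of several of these transcripts, where they block translation of ferritin and ferroportin and protect the transferrin receptor transcript from decay when iron is scarce. In the kidney, iron is filtered and taken back up mostly in the proximal tubule, and free iron is known for damaging tubule cells after ischemia. The values below are transcript levels and say nothing of translation, protein or iron content.

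Total counts lay between 15367342 and 44793350 per kidney, and 10116 to 11574 genes had at least 1 count. A count of 3, taken as the detection floor, corresponded to 0.0661 to 0.190 CPM (counts scaled to library size), and this covers counting error only. The 9 genes had between 82 and 332117 counts in a kidney, far above that floor. The kidney label was checked on proximal tubule markers (Lrp2, Cubn, Slc34a1, Slc5a2, Slc22a6 and Aqp1), all 6 of which were detected. The first principal component (26.5% of the variance) separated the controls from the ischemic kidneys, and the second (12.2%) set replicate 4 of set B apart, with a score of 149 against −41.4 to 25.6 in the other kidneys. That kidney had the highest Mt1, Mt2, Slc40a1 and Slc39a14 level of all 12, and the affected comparisons are given with and without it.

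The sequences shown first are stretches before the starts of Mt2 and Mt1, the pair that differed most between control and ischemic kidneys. They were searched for a motif through which these genes are known to be regulated. Mt2 (chr8:94172664-94173568, plus strand) and Mt1 (chr8:94179082-94180327, plus strand) are neighbouring genes in GRCm38, the build of the counts. The core of the metal response element, the motif bound by MTF1, was searched as TGCACNC or TGCGCNC on both strands in the 300 bases around each RefSeq start (250 before and 50 after). The stretch printed for Mt2 ends just before its RefSeq start, which lies upstream of the annotated start above, and that for Mt1 ends just before the annotated start. Both are given 5′ to 3′, with each core in capitals, read from RefSeq on GRCm38.p6 (chr8:94172368-94172617 for Mt2 and chr8:94178839-94179081 for Mt1, both plus strand).
Mt2 upstream: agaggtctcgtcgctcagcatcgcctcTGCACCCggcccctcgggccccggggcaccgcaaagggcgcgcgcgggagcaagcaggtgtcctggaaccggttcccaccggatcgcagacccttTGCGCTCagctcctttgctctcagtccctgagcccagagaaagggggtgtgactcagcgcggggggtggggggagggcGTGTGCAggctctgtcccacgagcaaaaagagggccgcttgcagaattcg
Mt1 upstream: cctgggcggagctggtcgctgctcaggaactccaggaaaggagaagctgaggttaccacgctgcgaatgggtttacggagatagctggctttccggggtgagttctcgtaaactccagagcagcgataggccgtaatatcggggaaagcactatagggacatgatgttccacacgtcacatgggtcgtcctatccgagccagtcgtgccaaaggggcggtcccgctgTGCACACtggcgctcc
The Mt2 window held 4 cores, 3 of them in the 250 bases printed, and the Mt1 window held 3, with 1 in the 243 bases printed. The Mt1 cores at chr8:94179091-94179097 and chr8:94179109-94179115 lie after the annotated start. Bases more than 50 after the RefSeq start were not searched. Among 32851 promoter windows of this length, 25.7% held at least 1 core, 1.97% at least 3 and 0.517% at least 4. Of the 6 genes with a window in the RefSeq table, Tfrc held 2 overlapping cores on opposite strands, and Fth1, Ftl1 and Cp held none of these letters. A match is a description of the letters and no measure of binding.

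A second set is shown because the ferritins, the iron exporter and the transferrin receptor are known to carry iron-responsive elements. The letters of an iron-responsive element were searched in the annotated untranslated regions as a C, 5 bases, the loop CAGTGN and 5 bases that pair with the first 5, with G and U allowed to pair. The capitals mark the C and the loop, and each match is printed 5′ to 3′ on the strand of its gene, in DNA letters from GRCm38.
Fth1, 5′ untranslated region, chr19:9982731-9982760, plus strand: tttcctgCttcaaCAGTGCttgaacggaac
Ftl1, 5′ untranslated region, chr7:45459779-45459808, minus strand: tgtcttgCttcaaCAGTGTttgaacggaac
Slc40a1, 5′ untranslated region, chr1:45925465-45925494, minus strand: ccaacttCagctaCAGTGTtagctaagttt
Tfrc, 3′ untranslated region, chr16:32631218-32631247, plus strand: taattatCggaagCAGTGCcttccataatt
Tfrc, 3′ untranslated region, chr16:32631597-32631626, plus strand: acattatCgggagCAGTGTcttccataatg
Tfrc, 3′ untranslated region, chr16:32631662-32631691, plus strand: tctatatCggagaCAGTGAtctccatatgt
Tfrc, 3′ untranslated region, chr16:32631709-32631738, plus strand: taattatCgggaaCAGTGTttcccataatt
The matches stood in the 5′ region of both ferritins and of Slc40a1, and Tfrc held 4 in its 3′ region. Of 21877 protein-coding genes searched, 30 (0.137%) held a match in a 5′ untranslated region and 128 (0.585%) in a 3′ untranslated region. Mt1, Mt2, Slc11a2, Slc39a14 and Cp held no match to these letters. The pattern asks for 5 unbroken pairs, so a hairpin with a bulge in that stretch would be missed. The lack of a match is therefore no proof that a transcript has no such element.

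Between set A and the controls, 5 of the 9 genes passed the threshold of 0.05 (adjusted p, edgeR quasi-likelihood F-test, Benjamini-Hochberg over 11664 genes), against 22.3% of all genes tested. Mt1, Mt2, Fth1 and Ftl1 were higher (10.5% of all genes were called higher) and Slc11a2 was lower (11.7%). Between set B and the controls, 5 of 9 were again called, against 22.8% of all genes. Mt1, Mt2, Ftl1 and Slc39a14 were higher (10.9%) and Slc11a2 was lower (11.9%). Without adjustment, 6 of the 9 had a p below 0.05 in set A (31.5% of all genes) and 7 in set B (32.7%). The number called fell to 3 in set A without control replicate 3 and to 3 in set B without set B replicate 3. The median log2 fold change of the 9 genes was 0.40 in set A kidneys and 0.68 in set B kidneys, where the medians of all genes were −0.02 and −0.02. Both comparisons use the same 4 control kidneys, so they are not independent of each other. In bulk kidney, a change in the number of cells of a type and a change in RNA per cell cannot be told apart.

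**Figure D1:**
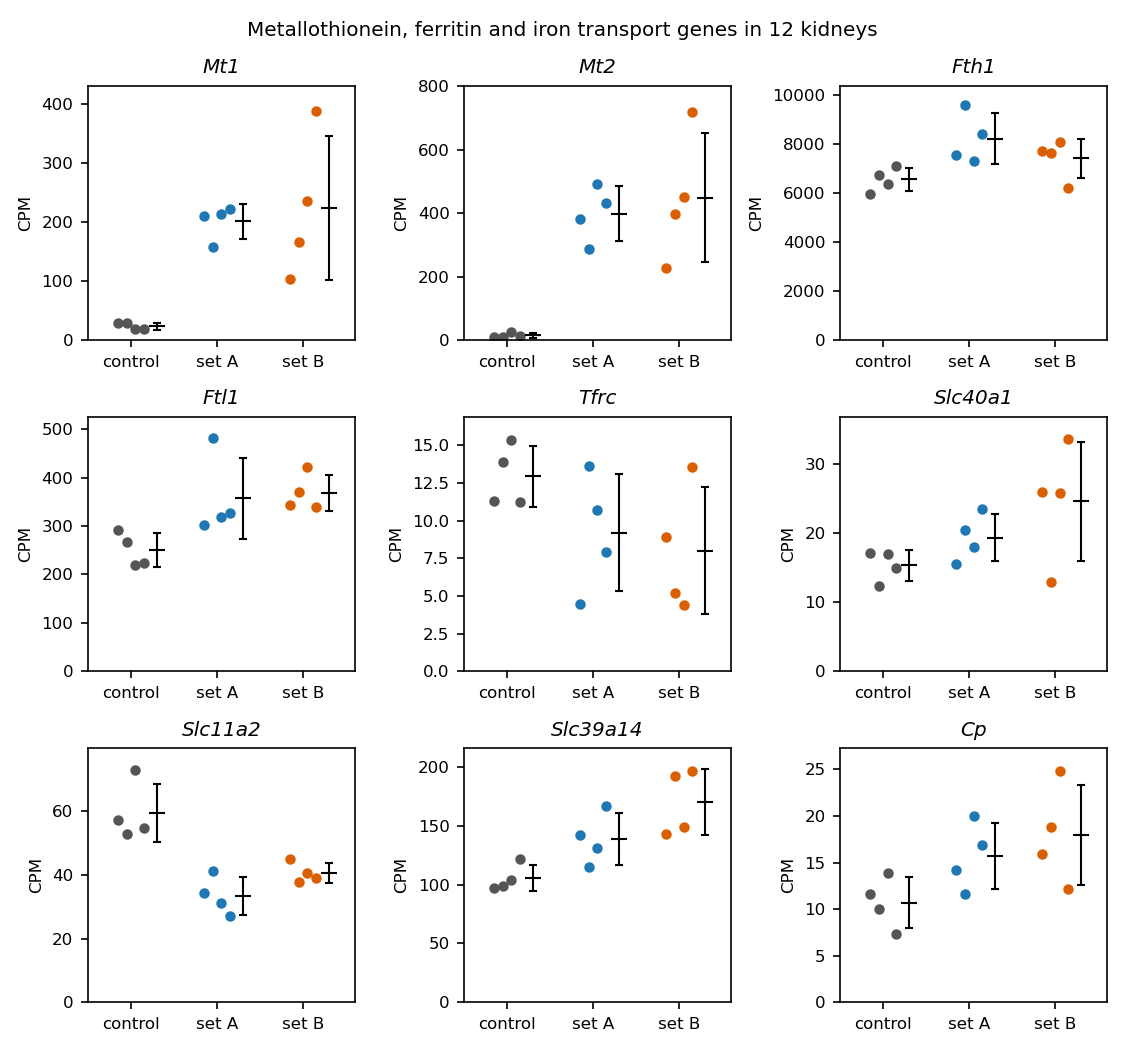
Level of each of the 9 genes in CPM (vertical axes, from 0) in the 4 control kidneys, the 4 kidneys of ischemia set A and the 4 of ischemia set B; points are kidneys, and the line and bars beside them are the mean ± SD. The ischemic kidneys lie apart from every control kidney for Mt1, Mt2, Ftl1 and Slc11a2 in both sets, for Fth1 in set A and for Slc39a14 in set B, and overlap the controls in the other panels.

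The metallothioneins differed most. Mt1 was at 29.7, 28.9, 18.7 and 19.2 CPM in control replicates 1 to 4. In set A it was at 211, 158, 214 and 223 CPM, and in set B at 104, 167, 235 and 388 CPM. Every ischemic kidney lay above every control kidney, and the spread was widest in set B, where replicate 4 was highest and replicate 1 lowest. Mt1 rose from 24.1 ± 6.01 CPM (SD, n = 4) to 201 ± 29.6 CPM in set A, a log2 fold change of 3.06 ± 0.30 (SE), which is 8.36-fold (edgeR adjusted p = 2.68e-07). Set B stood at 224 ± 122 CPM (SD, n = 4), a log2 fold change of 3.21 ± 0.30 (SE, edgeR adjusted p = 1.64e-07).

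Mt2, the second of the broadly expressed metallothioneins, was at 11.0, 11.1, 27.1 and 15.4 CPM in the controls. It was at 383, 288, 491 and 434 CPM in set A and at 229, 397, 452 and 719 CPM in set B. Again no ischemic kidney overlapped a control kidney, and the order of the 4 kidneys within set B was the same as for Mt1. Mt2 rose from 16.2 ± 7.57 CPM to 399 ± 86.1 CPM (SD, n = 4) in set A, a log2 fold change of 4.63 ± 0.34 (SE, edgeR adjusted p = 5.93e-09). Set B stood at 449 ± 204 CPM (SD, n = 4), a log2 fold change of 4.80 ± 0.34 (SE, edgeR adjusted p = 3.70e-09). Both genes stayed past the threshold in both sets under all 19 alternative settings, including each fit without 1 kidney. Without replicate 4 of set B, the log2 fold changes in set B were 2.81 for Mt1 and 4.47 for Mt2.

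The proportion of the pair was compared within each kidney. The count of Mt2 divided by that of Mt1 was 0.372, 0.384, 1.45 and 0.804 in the control kidneys. It was 1.81, 1.83, 2.30 and 1.95 in set A and 2.21, 2.37, 1.92 and 1.86 in set B, so all 8 ischemic kidneys lay above all 4 controls and lay closer together than the controls did. The mean log2 ratio was higher by 1.62 in set A kidneys and by 1.70 in set B kidneys (2-sided exact permutation test, p = 0.0286 for each, adjusted p = 0.0857 over 6 ratio tests), which does not pass the threshold after adjustment. A p of 0.0286 is the smallest that 4 kidneys against 4 allow. These ratios were chosen after the values had been seen, so the test is no independent evidence. Together the pair took 40.3 ± 4.59 CPM (SD, n = 4) in the controls, 600.4 ± 113 CPM in set A kidneys and 673 ± 325 CPM in set B kidneys. An antisense gene, Gm45774, overlaps Mt2 in the annotation and is no row of the count table, and the strand setting of the counting is not given in the sources used here, so reads from it cannot be told apart. Of the other metallothioneins, Mt4 had no count in any kidney, and Mt3 was not called (edgeR adjusted p = 0.586 in set A kidneys and 0.904 in set B kidneys).

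**Figure D2:**
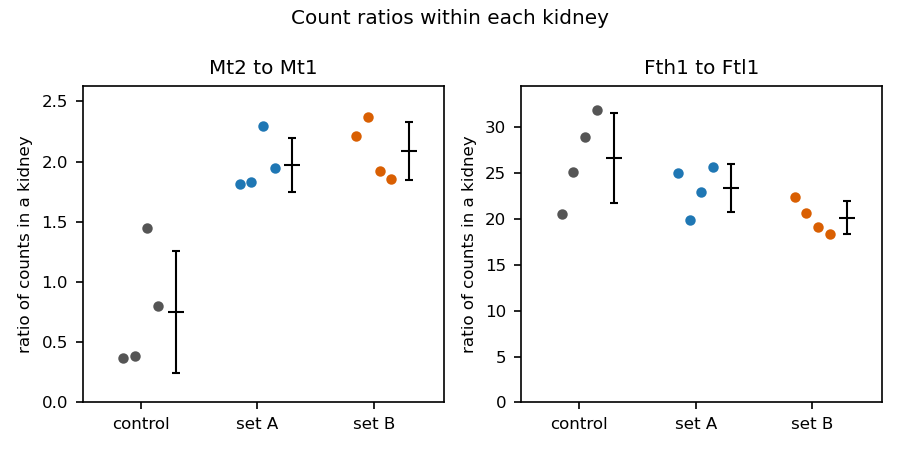
Ratio of the counts of Mt2 to Mt1 (left) and of Fth1 to Ftl1 (right) within each kidney; points are kidneys, and the line and bars are the mean ± SD of the 4 kidneys of a group. The Mt2 to Mt1 ratio is 0.372 to 1.45 in the controls and 1.81 to 2.37 in the ischemic kidneys, and the Fth1 to Ftl1 ratio overlaps between the groups.

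Ferritin transcripts had smaller fold changes. Ftl1 (chr7:45457944-45459884, minus strand), the light chain, was at 291, 268, 220.4 and 223 CPM in the controls. It was at 301, 482, 319 and 326 CPM in set A and at 344, 369.7, 421 and 339 CPM in set B. All 8 ischemic kidneys lay above the controls, by a narrow margin in set A, where replicate 2 stood above the other 3. Ftl1 rose from 251 ± 34.6 CPM to 357 ± 83.9 CPM (SD, n = 4) in set A, a log2 fold change of 0.51 ± 0.15 (SE, edgeR adjusted p = 0.0188). Set B stood at 368 ± 37.5 CPM (SD, n = 4), a log2 fold change of 0.56 ± 0.15 (SE, edgeR adjusted p = 0.0107). The call in set A was lost without set A replicate 2 (log2 fold change 0.33, adjusted p = 0.102), without control replicate 3 (adjusted p = 0.0754) and without control replicate 4 (adjusted p = 0.0649), and the call in set B without set B replicate 3 (adjusted p = 0.0508).

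Fth1 (chr19:9980598-9985098, plus strand), the heavy chain, was at 5975, 6734, 6369 and 7112 CPM in the controls. It was at 7534, 9585, 7317 and 8381 CPM in set A and at 7695, 7633, 8065 and 6217 CPM in set B. Set A lay above all controls, while replicate 4 of set B fell within their range. The log2 fold change was 0.33 ± 0.10 (SE, edgeR adjusted p = 0.0301) in set A. This call was lost in 11 of 19 alternatives, among them no filter on low counts (adjusted p = 0.0745), limma-trend (adjusted p = 0.0805) and the fits without each of the control replicates 1 to 3, set A replicates 2 and 4, and set B replicates 1 to 3 (adjusted p between 0.0508 and 0.141). In set B the log2 fold change was 0.18 ± 0.10 (SE, edgeR adjusted p = 0.272). Fth1 and Ftl1 together held 0.680% of all counts in the controls, 0.856% in set A kidneys and 0.777% in set B kidneys.

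The proportion of the 2 chains overlapped between the groups. The count of Fth1 divided by that of Ftl1 was 20.5, 25.2, 28.9 and 31.9 in the controls, 25.0, 19.9, 22.9 and 25.7 in set A kidneys and 22.4, 20.6, 19.2 and 18.3 in set B. The mean log2 ratio differed from control by −0.17 in set A (2-sided exact permutation test, p = 0.257) and by −0.39 in set B (p = 0.0857), with an adjusted p of 0.309 and 0.171. The annotation holds 5 ferritin pseudogenes, none of which is a row of the table, and how reads shared with them were counted is not given in the sources used here. The absolute ferritin levels are therefore uncertain. The genes Gm22133 and Gm10252, which overlap Ftl1, are no rows of the table either.

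Among the iron carriers, Slc11a2 was lower in both sets and Slc39a14 higher in set B. Slc11a2 (chr15:100387898-100425072, minus strand), the proton-coupled importer of ferrous iron, was at 57.3, 53.0, 73.1 and 54.8 CPM in the controls. It was at 34.4, 41.3, 31.1 and 27.1 CPM in set A and at 45.2, 38.0, 40.6 and 39.0 CPM in set B, and every ischemic kidney lay below every control kidney. Slc11a2 fell by 0.83 ± 0.19 (SE) on the log2 scale in set A (edgeR adjusted p = 0.00341), from 59.6 ± 9.22 CPM to 33.5 ± 5.98 CPM (SD, n = 4), and kept this call under all 19 alternatives. In set B the level was 40.7 ± 3.19 CPM (SD, n = 4) and the fall was by 0.55 ± 0.19 (SE) on the log2 scale (edgeR adjusted p = 0.0478). The set B call lay at the threshold and was lost in 14 of 19 alternatives, among them relative log expression scaling (adjusted p = 0.0616), both other filters (adjusted p = 0.0561 and 0.0559) and 10 of the 12 fits without 1 kidney (adjusted p between 0.0501 and 0.152). The exceptions among those fits were set A replicates 2 and 4. Exons of Slc11a2 overlap those of Gm5475 on the opposite strand, a row of the table with no count in any kidney, and without the strand setting antisense reads cannot be told apart.

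Slc39a14 (chr14:70303469-70351425, minus strand), which imports zinc and non-transferrin-bound iron, was at 97.4, 99.0, 104 and 122 CPM in the controls. It was at 142, 115, 131 and 167 CPM in set A and at 143, 192, 149 and 197 CPM in set B. Set B lay wholly above the controls, and replicate 2 of set A lay below the highest control. Slc39a14 rose from 106 ± 11.3 CPM to 170.2 ± 28.2 CPM (SD, n = 4) in set B, a log2 fold change of 0.69 ± 0.16 (SE, edgeR adjusted p = 0.00263), called under all 19 alternatives. In set A the log2 fold change was 0.39 ± 0.16 (SE, edgeR adjusted p = 0.0792), and the threshold was passed with DESeq2 (adjusted p = 0.0468), with the 2 groups fitted alone (adjusted p = 0.0474) and without set A replicate 2 (adjusted p = 0.0458). The difference between the sets themselves was 0.29 (95% confidence interval −0.03 to 0.62) and was not called.

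Tfrc (chr16:32608920-32632794, plus strand), the receptor that takes up transferrin-bound iron, was at 11.3, 13.9, 15.4 and 11.3 CPM in the controls. It was at 4.51, 13.6, 10.7 and 7.95 CPM in set A and at 8.89, 5.19, 4.401 and 13.6 CPM in set B. In each set, 1 kidney lay within the control range and the other 3 lay below it. The log2 fold change was −0.50 ± 0.45 (SE, edgeR adjusted p = 0.541) in set A and −0.69 ± 0.45 (SE, edgeR adjusted p = 0.329) in set B, so no difference beyond the spread was detectable.

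Slc40a1 (chr1:45908068-45926523, minus strand), the only known cellular iron exporter, was at 17.2, 12.3, 17.0 and 14.975 CPM in the controls. It was at 15.5, 20.5, 18.0 and 23.6 CPM in set A and at 26.0, 12.9, 25.9 and 33.7 CPM in set B. Replicate 2 of set B lay low among the controls while the other 3 of that set lay above them. The log2 fold change was 0.33 ± 0.30 (SE, edgeR adjusted p = 0.540) in set A and 0.68 ± 0.30 (SE, edgeR adjusted p = 0.122) in set B. Without replicate 2 of set B the latter was 0.87, with an adjusted p of 0.0394.

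Cp (chr3:19957054-20009145, plus strand), the copper enzyme that oxidises exported iron, was at 11.6, 10.01, 13.9 and 7.32 CPM in the controls. It was at 14.2, 11.6, 20.0 and 16.9 CPM in set A and at 15.9, 18.8, 24.9 and 12.2 CPM in set B. The groups overlapped by 1 kidney in each set. The log2 fold change was 0.55 ± 0.34 (SE, edgeR adjusted p = 0.295) in set A and 0.75 ± 0.34 (SE, edgeR adjusted p = 0.129) in set B. Exons of Cp overlap those of Hps3 on the opposite strand, so reads of the 2 genes cannot be told apart without the strand setting of the counting.

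**Figure D3:**
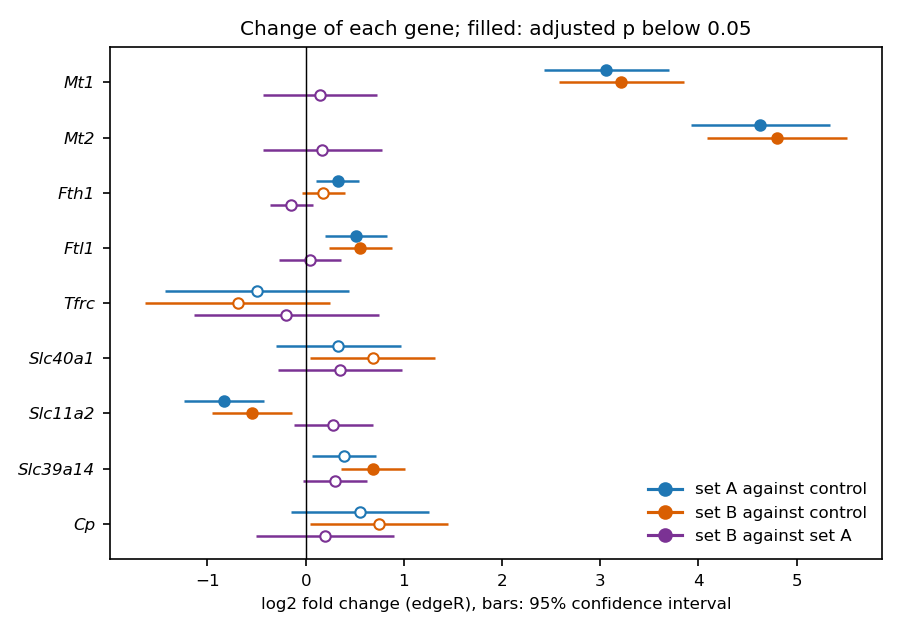
The log2 fold change of each gene from edgeR (horizontal axis) for each ischemia set relative to the controls and for the sets relative to each other (B minus A); bars are 95% confidence intervals and filled points have an adjusted p below 0.05. Mt1 and Mt2 stand near 3 and near 5 against the controls in both sets, the other filled points lie between −0.83 and 0.69, and no point of the comparison between the sets is filled.

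Replicate 4 of set B, the kidney set apart on the second component, moved some of these values. Without it, the set B log2 fold changes were 0.59 for Ftl1 (edgeR adjusted p = 0.00854) and 0.61 for Slc39a14 (edgeR adjusted p = 0.00745), both still called. Slc11a2 was at −0.53 and no longer called (edgeR adjusted p = 0.0819). The genes not called with all 12 kidneys were again not called, with log2 fold changes of 0.25 for Fth1 (edgeR adjusted p = 0.0751), −1.07 for Tfrc (edgeR adjusted p = 0.121), 0.49 for Slc40a1 (edgeR adjusted p = 0.324) and 0.89 for Cp (edgeR adjusted p = 0.0761).

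The exact permutation test, which uses no model, was run on the mean CPM of each gene in each comparison (27 tests, 2-sided). The smallest possible p of 0.0286 was reached by Mt1, Mt2, Ftl1 and Slc11a2 in both sets, by Fth1 in set A and by Slc39a14 in set B. Adjusted over the 27 tests this became 0.0771, so none passed at this sample size. The groups did not overlap for 5 of 9 genes in either set, 4 higher and 1 lower. Of all genes tested, 28.2% did not overlap in set A (12.6% higher and 15.7% lower) and 26.7% in set B (11.6% higher and 15.1% lower). For Fth1 in set B, p was 0.114. For Slc39a14 in set A and for Cp in both sets, p was 0.0571. Tfrc gave 0.114 in set A kidneys and 0.0857 in set B kidneys, and Slc40a1 gave 0.114 in each.

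None of the 9 genes was called between set B and set A in edgeR, and none had an unadjusted p below 0.05. DESeq2 and limma-trend also called 0. No gene of the 9 had sets that did not overlap, where 2.61% of all genes did (1.29% higher and 1.32% lower). Of all genes tested, 0.00857% were called and 5.03% had an unadjusted p below 0.05. The difference was 0.15 (95% confidence interval −0.43 to 0.73) for Mt1 and 0.17 (−0.43 to 0.78) for Mt2 on the log2 scale. Without replicate 4 of set B these became −0.26 and −0.15. For Ftl1 the interval was −0.27 to 0.36, for Fth1 −0.37 to 0.07 and for Slc11a2 −0.12 to 0.69. Slc40a1 (−0.29 to 0.98), Cp (−0.51 to 0.89) and Tfrc (−1.14 to 0.74) had the widest intervals, which leave room for differences in either direction. The Mt2 to Mt1 ratio differed by 0.08 between the sets (2-sided exact permutation test, p = 0.457), and the Fth1 to Ftl1 ratio by −0.21 (p = 0.114).

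Per kilobase of the principal transcript, the levels ran over more than 3 orders of magnitude. In the controls Fth1 (4383 ± 326 CPM per kb, SD, n = 4) stood above Ftl1 (259 ± 35.8), and Ftl1 above Mt1 (43.9 ± 11.0). Mt1, Mt2, Slc39a14 and Slc11a2 followed, each overlapping its neighbour. Slc40a1 (4.56 ± 0.674) stood below those 4, and Cp and Tfrc, which overlapped, were lowest at 2.65 ± 0.683 and 2.65 ± 0.413. In set A the Mt2 level (781 ± 169 CPM per kb) lay above that of Ftl1 (369 ± 86.7) in every kidney, and Mt1 (367 ± 53.9) overlapped Ftl1. In set B Mt2 (879 ± 399), Mt1 (407 ± 222) and Ftl1 (381 ± 38.8) overlapped in turn. Slc39a14, Slc11a2, Slc40a1, Cp and Tfrc followed in that order in both sets, with overlap only between Slc40a1 and Cp. With the union of all annotated exons as the length, Mt1 and Mt2 changed places in the controls, Tfrc stood above Slc40a1 and Cp there, and Mt1 and Ftl1 changed places in set B.

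The genes whose levels followed those of the 4 genes called in both sets most closely were found by the root mean square difference of mean-centred log2 CPM over the 12 kidneys, among 9355 genes. Arpc1b (0.259), a subunit of the actin-branching complex, and Tuba1a (0.308), an alpha-tubulin, were closest to Mt1. Creb5 (0.354), a transcription factor, and Spp1 (0.507), the secreted protein osteopontin, were closest to Mt2. Spp1 was at 16.7 ± 2.45 CPM (SD, n = 4) in the controls, 563 ± 114 CPM in set A kidneys and 712 ± 174 CPM in set B kidneys. Rpl7 (0.153), a ribosomal protein, and Naa15 (0.171), a subunit of an N-terminal acetyltransferase, were closest to Ftl1. Bscl2 (0.129), the lipid droplet protein seipin, and Uqcrb (0.154), a subunit of respiratory complex III, were closest to Slc11a2. These are descriptions of likeness over kidneys that share the contrast between control and ischemia.

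Further zinc, copper, iron and heme genes were called lower more often than higher. Of 93 further symbols listed, 89 were in the table and 66 were tested. In set A 22 of them (33.3%, against 22.3% of all genes) were called, 6 higher and 16 lower. In set B 22 (33.3%, against 22.8%) were called, 4 higher and 18 lower. Of all genes, 10.5% were called higher and 11.7% lower in set A, with 10.9% and 11.9% for set B. The median log2 fold change of the 66 genes was −0.33 in set A kidneys and −0.44 in set B kidneys, where the median of all genes was −0.02 in each. Between the sets none was called in edgeR, DESeq2 or limma-trend, and 6 of the 66 had an unadjusted p below 0.05 in edgeR. Of all genes tested, 0.00857% were called between the sets in edgeR and 5.03% had an unadjusted p below 0.05.

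Among 7 tested zinc exporters of the Slc30 family, 1 was higher and 3 lower in set A, and 1 higher and 2 lower in set B (57.1% and 42.9% called, against 22.3% and 22.8% of all genes). Slc30a7, which carries zinc into the Golgi, rose from 123 ± 15.8 CPM to 195 ± 31.8 CPM (SD, n = 4) in set A kidneys and 215 ± 17.0 CPM in set B kidneys. Slc30a5, another early secretory zinc carrier, had log2 fold changes of −1.197 in set A kidneys and −1.01 in set B kidneys. Slc30a9, a mitochondrial member, had log2 fold changes of −1.19 and −1.09. Among the other zinc importers of the Slc39 family and Mtf1, 11 were tested, with 1 higher and 2 lower in each set (27.3% called, near the 22.3% and 22.8% of all genes). In set A the count of 3 fell to 1 without any 1 of the control kidneys and without set A replicate 1, 3 or 4. Slc39a8, a zinc, manganese and iron importer closely related to Slc39a14, fell from 12.6 ± 2.76 CPM to 1.34 ± 0.864 CPM (SD, n = 4) in set A kidneys and 0.856 ± 1.07 CPM in set B kidneys, while Slc39a14 was called higher in set B. The edgeR adjusted p of Slc39a8 was 0.0427 in set A, close to the threshold, and 0.0181 in set B. It had only 0 to 35 counts in the set B kidneys. Slc39a5, another zinc importer, fell too (log2 fold changes −2.15 and −1.94). Mtf1, the factor that binds the metal response element and was chosen here after its values were seen, had a log2 fold change of 0.47 (edgeR adjusted p = 0.0478) in set A kidneys and 0.31 (edgeR adjusted p = 0.205) in set B kidneys.

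Of 6 tested genes for iron sensing and ferritin handling, none was higher and 3 were lower in set A kidneys and 4 in set B kidneys (50% and 66.7%, where 11.7% and 11.9% of all genes were lower). The iron regulatory proteins fell, with Aco1 from 122 ± 12.7 CPM to 54.4 ± 12.7 CPM (SD, n = 4) in set A kidneys and 61.1 ± 10.9 CPM in set B kidneys. Ireb2 went from 125 ± 8.95 CPM to 77.5 ± 7.32 CPM (SD, n = 4) in set A kidneys and 75.7 ± 4.00 CPM in set B kidneys. Pcbp2, an iron chaperone that also binds RNA, fell slightly (log2 fold changes −0.39 and −0.41). Ncoa4, the receptor that sends ferritin to lysosomes, was also chosen after its values were seen. It fell by 1.03 on the log2 scale in set B (edgeR adjusted p = 0.0250) and had a log2 fold change of −0.83 in set A (edgeR adjusted p = 0.0728).

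Of 11 tested genes for transferrin, hepcidin and epithelial iron uptake, 3 were higher and 3 lower in set A, and 2 higher and 4 lower in set B (54.5% called in each, against 22.3% and 22.8% of all genes). Lcn2, which binds iron-loaded siderophores and marks tubular injury, had at most 1 count in a control kidney. It reached 13.02 ± 7.42 CPM (SD, n = 4) in set A kidneys and 15.3 ± 8.51 CPM in set B kidneys, at least 125-fold and 147-fold higher with each control kidney set to the floor of 3 counts. Steap1, of the STEAP family, which includes metal reductases, had 0 counts in 3 controls and 6 in the fourth. It reached 2.997 ± 1.47 CPM (SD, n = 4) in set A kidneys and 4.93 ± 2.81 CPM in set B kidneys. The proximal tubule receptors fell, Lrp2 (megalin) from 765 ± 51.3 CPM to 115 ± 42.1 CPM (SD, n = 4) in set A kidneys and 108 ± 60.9 CPM in set B kidneys, and Cubn (cubilin) with log2 fold changes of −2.29 and −2.18. The lipocalin receptor gene Slc22a17 had log2 fold changes of −1.30 and −1.15. The hepcidin genes Hamp and Hamp2 had no count in any kidney.

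Of 11 tested heme genes, 1 was higher and 2 lower in set A, while set B had 2 lower (27.3% and 18.2% called, near the 22.3% and 22.8% of all genes). Without set A replicate 1 or 3, the set A count of 3 fell to 1. Mfsd7c, a relative of the heme exporter Flvcr1, also named Flvcr2, fell from 46.3 ± 8.73 CPM to 3.95 ± 2.29 CPM (SD, n = 4) in set A kidneys and 6.51 ± 1.94 CPM in set B kidneys. Fech, which inserts iron into heme, fell with log2 fold changes of −0.63 in set A kidneys and −0.94 in set B kidneys. Hmox1, heme oxygenase, was chosen after its values were seen and was not called, with a log2 fold change of 1.39 in set A (edgeR adjusted p = 0.0796) and 0.96 in set B (edgeR adjusted p = 0.245). Of 10 tested mitochondrial iron genes, 2 were lower in set A kidneys and 3 in set B kidneys (20% and 30%, where 11.7% and 11.9% of all genes were lower). Nfs1, the cysteine desulfurase of iron-sulfur cluster assembly, fell with log2 fold changes of −1.40 and −1.14. Of 9 tested copper genes, 1 was lower in each set (11.1%, near those shares of all genes), the copper importer Slc31a1 (log2 fold changes −1.62 and −1.39).

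**Figure D4:**
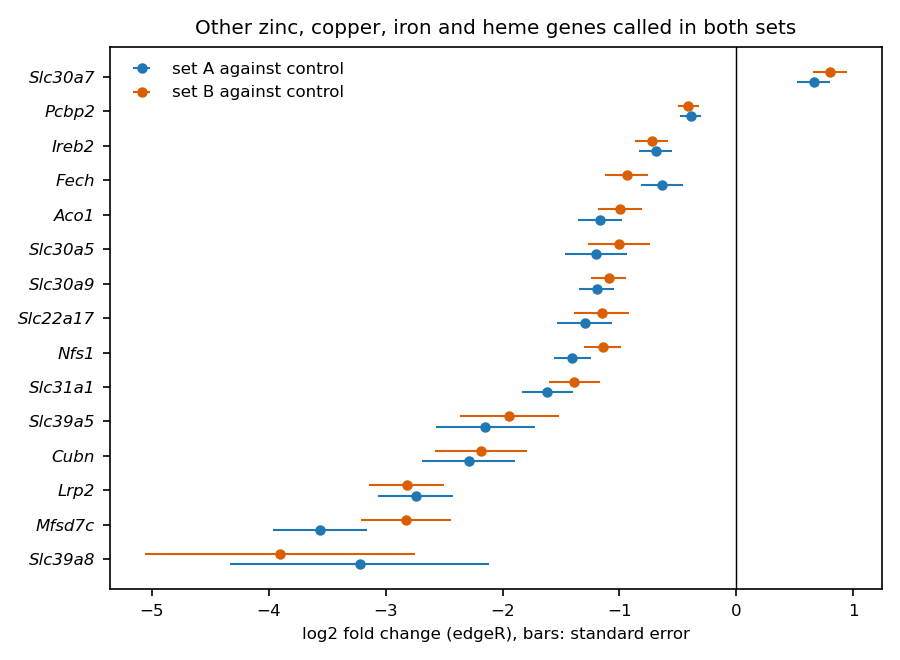
The log2 fold change from edgeR (horizontal axis) of 15 further metal genes that were called in both sets and had more than 3 counts in every control kidney; points are set A and set B against control and bars are standard errors, and Lcn2 and Steap1 are left out because control kidneys were at or under the floor. Slc30a7 lies to the right of 0 and the other 14 genes to the left, with Slc39a8 and Mfsd7c lowest.

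The summed levels of cell type markers also differed between the groups. The summed level of 6 proximal tubule markers was 6553 to 7306 CPM in control kidneys, 689 to 1267 CPM in set A kidneys and 400.4 to 1310.2 CPM in set B kidneys. That of 4 markers of the thick ascending limb and distal tubule was 2914 to 3525 CPM, 1109 to 1728 CPM and 1016 to 1974 CPM. Each of the 6 proximal tubule markers was lower in every ischemic kidney than in any control, in the same direction as Slc11a2 and most of the called further metal genes and opposite to the metallothioneins, Ftl1 and Slc39a14. Lrp2 and Cubn are among both these markers and the called further metal genes, so the shared direction is partly that of the same genes. In the distal list this held for Slc12a1 and Calb1, while Umod (111 to 119 CPM in the controls and 76.0 to 208 CPM in the ischemic kidneys) and Slc12a3 (803 to 1125 CPM and 675 to 1021 CPM) overlapped. The 8 monocyte and macrophage markers, cells that also carry much ferritin and ferroportin, summed to 53.5 to 73.7 CPM in control kidneys, 14.1 to 31.0 CPM in set A kidneys and 14.98 to 40.04 CPM in set B kidneys. Most of that difference was Csf1r, at 40.7 to 62.7 CPM in the controls and 4.19 to 19.5 CPM in the ischemic kidneys, and the other 7 markers overlapped between control and ischemic kidneys (Mrc1 in set B only), with Cd68 at most 1.66 CPM in a control and up to 8.70 CPM in set B. The 6 erythroid markers in the table summed to 99.1 to 153 CPM in control kidneys, 29.1 to 57.7 CPM in set A kidneys and 17.8 to 35.0 CPM in set B kidneys, with Hba-a1 and Hba-a2 at 0 in every kidney. The 3 neutrophil markers in the table summed to at most 0.441 CPM, with S100a8 at 0. The hepatocyte list, a tissue rich in Cp and Slc39a14, summed to 15.9 to 23.7 CPM in the controls and at most 7.79 CPM in the ischemic kidneys, with Apoa1 at 0. Nearly all of this was Ttr (14.9 to 23.1 CPM in the controls and at most 5.66 CPM in the ischemic kidneys), and Alb was at 0 in the controls. Adipocyte markers summed to at most 3.77 CPM (Adipoq, Cfd and Plin1 at 0) and adrenal cortex markers to at most 1.57 CPM (Cyp11a1, Cyp11b1 and Cyp21a1 at 0). The 4 tubular injury markers summed to 0 to 9.36 CPM in control kidneys, 150.3 to 207 CPM in set A kidneys and 132 to 167 CPM in set B kidneys. The part of these markers in the differences of the 9 genes was not tested.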

How the data were processed

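Libraries from 12 kidneys were prepared by the authors with a stranded mRNA kit and sequenced as single reads, mapped to mm10 with STAR and counted per gene with HTSeq; versions, annotation release and strand setting are not given in the sources used here. The authors deposited unnormalised counts of 23420 genes. Counts were analysed in edgeR 4.0.16 (R 4.3.3). The default filter (minimum count 10, minimum total 15) kept 11664 genes, TMM factors (0.968 to 1.03) scaled the libraries, and 1 model with a coefficient per group was fitted to all 12 kidneys. Quasi-likelihood F-tests were adjusted by Benjamini-Hochberg over all genes, with a threshold of 0.05; the common biological coefficient of variation was 0.762. Single genes were also compared by exact permutation tests (SciPy 1.17.1). The procedure was tested on simulated data. Nothing beyond the number of mice says that replicates are separate animals, so p-values measure the spread between these samples. No replicate pair agreed within sampling noise (chi-square per degree of freedom at least 48.9). Positions are from GENCODE on GRCm38 (mm10).

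The 9 genes are always named. Of the other metal genes, those past the threshold in both sets are named, up to 3 rises and 3 falls per list (a gene that the rule names is not reported here), and for each of the 9 called in both sets the 2 most similar genes with a mean log2 CPM (prior count 2) of at least 1. The genes and lists were chosen with earlier results of these data known. The results were recomputed with DESeq2 1.42.0, RLE (relative log expression) scaling, no filter, a CPM filter (above 1 in 4 or more kidneys), only 2 groups fitted, a replicate block, limma-trend (limma 3.58.1) and leaving out each kidney.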

Additional observations from a re-analysis of the deposited data

Results flagged for a closer look

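Among 33 groups of 4 kidneys examined, 1 kidney stood apart from the other 3 of its group by Dixon's criterion, which chance alone meets in about 1 of 20 groups. This was Ftl1 in replicate 2 of ischemia set A, at 482 CPM, where the other 3 kidneys lay between 301 and 326 CPM. The same kidney had the highest Fth1 level of all 12 kidneys, at 9585 CPM. Without it, Ftl1 in set A had a log2 fold change of 0.33 (edgeR adjusted p = 0.102).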

How the results depend on the processing

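Each result was recomputed under 19 alternatives. Mt1 and Mt2 in both sets, Slc11a2 in set A and Slc39a14 in set B kept their direction and their call in all 19, with log2 fold changes of 2.94 to 3.19 (Mt1, set A), 2.81 to 3.43 (Mt1, set B), 4.49 to 4.98 (Mt2, set A), 4.47 to 5.14 (Mt2, set B), −0.95 to −0.73 (Slc11a2) and 0.60 to 0.76 (Slc39a14). The number of the 9 genes called in set A was 3 without control replicate 3 and lay between 3 and 5 over the fits without 1 kidney. In set B it was 3 without set B replicate 3 and again lay between 3 and 5. Of the 66 other metal genes, 18 to 24 passed in set A, with 20 to 24 for set B. The calls among all genes moved too. In set A they ran from 2142 of 11991 (without set A replicate 3) to 2969 of 11664 (DESeq2). In set B they ran from 2213 of 11990 (without control replicate 4) to 3067 of 11664 (DESeq2). Between the sets, where none of the 9 genes and none of the 66 other metal genes was called under any of the 19 alternatives, the sign of some small differences turned: Mt1 to −0.00147 with limma-trend, and over the fits without 1 kidney Mt1 ranged from −0.26 to 0.38, Mt2 from −0.15 to 0.39, Ftl1 from −0.0307 to 0.22, Tfrc from −0.57 to 0.0523 and Cp from −0.00607 to 0.34. Among the fits without 1 kidney, Mt1 and Mt2 turned only without replicate 4 of set B (−0.26 and −0.15). The cause of these turns was not tested. With 4 kidneys a group and this spread, small fold changes of the low genes Tfrc, Slc40a1 and Cp were not detectable.

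No pairing of the samples by the replicate numbers of the titles was seen, though this check cannot exclude a shared animal or batch. Same-numbered kidneys of different groups had correlations of deviations from their group means between −0.0554 and 0.0452 (12 pairs), within the range of differently numbered kidneys (−0.0619 to 0.0763). With the replicate number as a block, 4 of the 9 genes were called in each set, with Fth1 in set A (adjusted p = 0.0532) and Slc11a2 in set B (adjusted p = 0.0700) past the threshold only without the block, and 19 and 22 of the other metal genes were called in sets A and B; for the zinc importers and Mtf1 in set A, 1 was called in place of 3.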
